A study of Homo sapiens with 6 samples.

Results

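Molecular chaperones keep newly made and damaged proteins from aggregating and help them fold. Their genes are known for separate control systems, the heat shock factors, which bind repeated heat shock elements near genes of cytosolic and mitochondrial chaperones, and the unfolded protein response, which acts on genes of the endoplasmic reticulum (ER) through the ER stress element. In prostate cancer cells chaperones are also known as partners of the androgen receptor, which HSP70 and HSP90 hold in a form able to bind hormone. The genes described here are the 26 protein-coding genes, of 14812 genes measured, whose symbols matched a pattern for heat shock proteins, J proteins, the CCT chaperonin, protein disulfide isomerases, BAG proteins, HSP90 co-chaperones and lectin chaperones. Of 99 protein-coding symbols in the RefSeq gene table that matched the pattern, the other 73 were not among the named probesets and were not analysed here. These included every J protein, CCT subunit and protein disulfide isomerase, and HSPA5, HSPA8 and HSPE1. The HSP90 genes were not part of the pattern. The members comprised 20 cytosolic genes, 3 ER genes (CALR, CANX and HYOU1), 2 mitochondrial genes (HSPA9 and HSPD1) and HSPBAP1, a protein that binds a small heat shock protein and was placed in none of these classes.

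RNA of C4-2 cells, an established human prostate cancer line derived from LNCaP, was measured on 6 arrays in 3 groups of 2, labelled as biological replicates and grown in medium containing hormones. The control cells received DMSO, the vehicle. The NU7441 cells received 1 µM of NU7441, a small molecule inhibitor of the kinase DNA-PKcs, for 24 h. The knockdown cells were depleted of DNA-PKcs with a pool of siRNAs against PRKDC, its gene, for 96 h. The protocol text also mentions a control siRNA pool, and the labels do not say which arrays, if any, came from cells that received it, so transfection and depletion cannot be told apart in the knockdown comparison. PRKDC had no named probeset, so depletion was not checked here. Nothing in the labels says that the 2 cultures of a group were grown on separate occasions, and p-values then measure only the spread between these cultures.

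The measured value was a linear intensity per probeset, and the lowest in the table was 16. The 6 measured luminal prostate markers, KLK2, KLK3, FOLH1, KRT8, KRT18 and HOXB13, summed to between 2686 and 3558 on the 6 arrays. The stromal markers DCN and LUM summed to at most 56.1, the endothelial marker VWF reached at most 30.2, and the basal markers KRT5 and KRT14 summed to at most 92.8, on the first NU7441 array. Of the leukocyte markers LYZ stayed at or under 29.8, and CD68, a lysosomal protein not confined to leukocytes, lay between 115 and 160. The 2 arrays of a group correlated at 0.988 for control, 0.97 for knockdown and 0.937 for NU7441 across all probesets, so values of the NU7441 group carried the widest spread.

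The promoters of the 6 genes on which the results below turn are shown to set the known control elements of chaperone genes beside genes that passed as lower under NU7441 (HSPD1, HSPH1, CANX) and genes that did not pass (HSPA1A, HSPA1B, CALR). Each window, from RefSeq with build GRCh38.p14, runs from 250 bases before to 50 bases after the annotated start, 5′ to 3′ on the gene's strand. Of the 26 members 23 had a window, and HSPD1 is shown with 1 of 2 windows and CANX with 1 of 4. The window shown was picked as the one with the most matches to the marked element, so it does not stand for every start of those genes. Capitals mark a heat shock element of 3 units in HSPD1, one of 2 units in HSPA1A and HSPA1B, and the ER stress element in CALR and CANX.
HSPD1, chr2:197499791-197500090, minus strand: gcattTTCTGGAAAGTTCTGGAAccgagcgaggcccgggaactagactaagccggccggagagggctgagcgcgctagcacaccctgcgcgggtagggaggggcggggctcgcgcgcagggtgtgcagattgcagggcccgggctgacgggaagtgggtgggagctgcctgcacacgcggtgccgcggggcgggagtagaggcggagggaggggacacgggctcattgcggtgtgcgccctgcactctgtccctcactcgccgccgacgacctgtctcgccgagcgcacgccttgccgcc
HSPH1, chr13:31162339-31162638, minus strand: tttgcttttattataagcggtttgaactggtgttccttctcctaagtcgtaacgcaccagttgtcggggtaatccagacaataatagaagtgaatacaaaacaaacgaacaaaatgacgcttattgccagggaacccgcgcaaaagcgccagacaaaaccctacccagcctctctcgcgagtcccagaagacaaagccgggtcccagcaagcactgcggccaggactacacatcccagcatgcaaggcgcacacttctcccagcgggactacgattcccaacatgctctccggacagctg
HSPA1A, chr6:31815293-31815592, plus strand: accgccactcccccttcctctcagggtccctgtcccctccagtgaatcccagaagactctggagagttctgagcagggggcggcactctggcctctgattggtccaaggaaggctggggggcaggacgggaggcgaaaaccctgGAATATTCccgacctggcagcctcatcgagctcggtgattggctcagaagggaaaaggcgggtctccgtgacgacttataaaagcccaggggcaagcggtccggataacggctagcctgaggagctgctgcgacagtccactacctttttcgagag
HSPA1B, chr6:31827488-31827787, plus strand: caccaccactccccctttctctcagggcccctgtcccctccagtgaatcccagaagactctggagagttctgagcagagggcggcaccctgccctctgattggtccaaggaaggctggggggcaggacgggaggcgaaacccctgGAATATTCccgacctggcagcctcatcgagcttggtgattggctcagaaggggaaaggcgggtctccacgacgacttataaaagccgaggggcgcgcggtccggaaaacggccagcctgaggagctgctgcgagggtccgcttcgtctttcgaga
CALR, chr19:12938359-12938658, plus strand: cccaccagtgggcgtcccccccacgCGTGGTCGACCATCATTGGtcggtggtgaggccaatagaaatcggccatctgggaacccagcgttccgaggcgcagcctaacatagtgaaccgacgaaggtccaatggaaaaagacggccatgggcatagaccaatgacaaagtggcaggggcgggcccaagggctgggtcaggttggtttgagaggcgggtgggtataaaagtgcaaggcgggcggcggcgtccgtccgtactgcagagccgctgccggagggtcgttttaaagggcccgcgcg
CANX, chr5:179698537-179698836, plus strand: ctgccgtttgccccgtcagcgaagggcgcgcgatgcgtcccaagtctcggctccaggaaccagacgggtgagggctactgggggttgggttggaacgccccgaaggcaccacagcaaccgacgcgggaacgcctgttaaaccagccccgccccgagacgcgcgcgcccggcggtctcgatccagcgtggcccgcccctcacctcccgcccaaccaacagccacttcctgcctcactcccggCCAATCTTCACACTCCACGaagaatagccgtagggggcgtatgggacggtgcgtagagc

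The 3-unit heat shock element was searched as GAANNTTCNNGAA and TTCNNGAANNTTC, the 2 strands of one motif. It was found in windows of 2 of the 23 members, HSPD1 and HSPA6, against 0.608% of the 27305 symbols with a window. In HSPD1 a pair of overlapping matches began 245 and 240 bases before the start. The 2-unit form, GAANNTTC or TTCNNGAA, which lies inside every 3-unit match, was in 13 of 23 members (56.5%) against 16.2% of all symbols. HSPH1 had no match to either form within its window, nor did BAG3. The ER stress element, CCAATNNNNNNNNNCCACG or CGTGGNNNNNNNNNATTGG, was in CALR and CANX alone among the members, against 0.0916% of all symbols. A symbol counted when any of its windows held a match. In CALR the match began 225 bases before the start. In CANX it began 9 bases before the start shown and ran across it. HYOU1 had no match to it in the window, and the CCAAT box (CCAAT or ATTGG), whose letters are part of the ER stress element, was in 10 of 23 members (43.5%) against 39.7%. Moved by 1 base, the HSPA1A and HSPA1B windows shared 277 of 299 bases. These matches describe letters in a window and do not show bound sites.

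**Figure D1:**
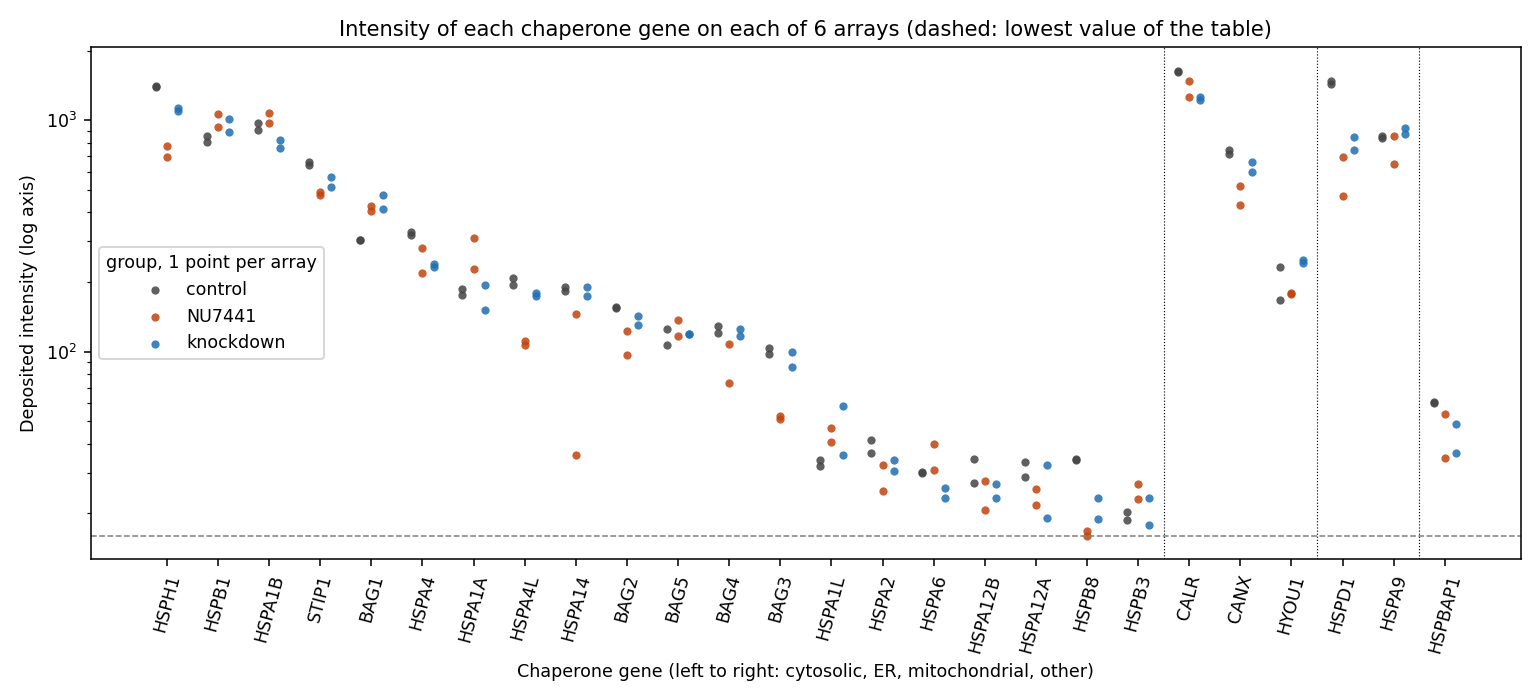
Deposited intensity (log axis) of the 26 chaperone genes, 1 point per array and 2 arrays per group, in the order cytosolic, ER, mitochondrial and other. For HSPH1, HSPD1, BAG3 and HSPA4L both NU7441 points lie below both control points, for BAG1 both lie above, and both NU7441 points of HSPB8 lie at the dashed line that marks the lowest value of the table.

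NU7441 against control addressed the response to inhibition of the kinase. In inhibitor-treated cells 7 of the 26 chaperone genes fell and 1 rose. The genes that fell were HSPD1, the mitochondrial chaperonin HSP60, with HSPH1, BAG3, HSPA4L, CANX and STIP1, and HSPB8, a small heat shock protein whose dim signal dropped to the lowest value of the table, so that the size of its fall is not measured. BAG1 rose. The stress-inducible HSP70 genes HSPA1A and HSPA1B were not among the genes that fell. In all, 8 of 26 members (30.8%) passed limma's test with Benjamini-Hochberg adjustment over all genes, against 33.2% of the 14812 genes tested, so the count of changed chaperones was near the background. By direction the background was 22.4% lower and 10.8% higher. The median log2 fold change was −0.39 for the members and −0.23 for all genes. Both NU7441 arrays were below both controls for 15 members (background 47.3%) and above for 6 (background 22.7%). In RNA from whole cultures, fewer cells of a kind and less RNA per cell cannot be told apart. The split of calls by direction depended on scaling: 7 lower and 1 higher as deposited became 5 and 5 after median centring, which moved the median of all genes from −0.23 to 0.08, and 9 and 2 after quantile normalization. Relative to the median of all genes the members' median was −0.16.

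Brightness moved with the fold changes in this comparison and is given beside them. Among the 1338 genes with a mean log2 intensity over 8 the median log2 fold change was 0.21, with 39% called higher and 28.5% called lower. The 10 members in that range had a median of −0.32, with 1 higher and 4 lower. Among genes under the median intensity the median was −0.30, and for the 6 members there it was −0.37. Its part in the members' changes was not tested.

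**Figure D2:**
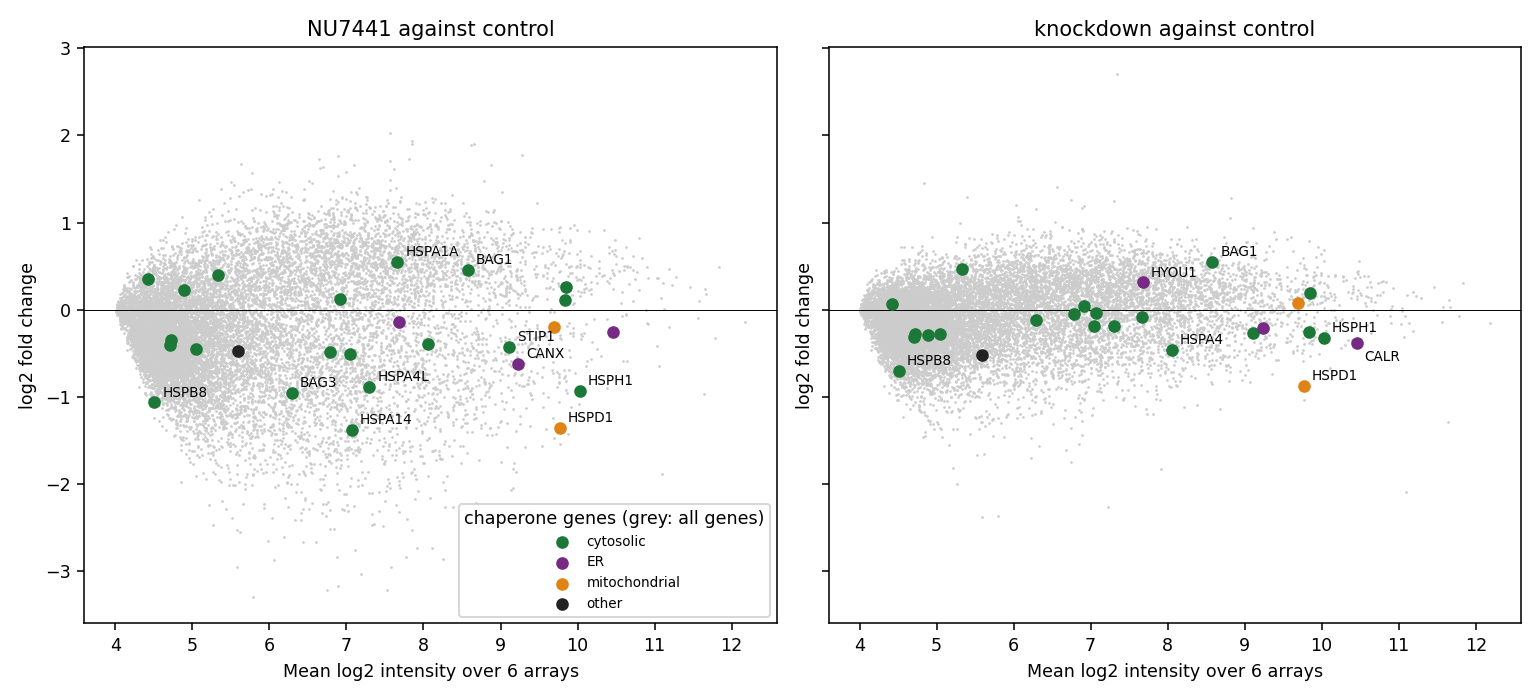
log2 fold change against mean log2 intensity for all 14812 genes (grey) and the 26 chaperone genes (coloured by compartment), for NU7441 against control (left) and knockdown against control (right). HSPD1 and HSPH1 lie below most genes of like brightness on the left, at −1.35 and −0.93, and HSPD1 again on the right, at −0.87.

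Of the mitochondrial chaperones, HSPD1 forms the chamber in which imported mitochondrial proteins fold. Its intensity was 1482 and 1432 in controls, 469 and 695 in NU7441-treated cells, and 849 and 748 after knockdown. Control arrays were above all 4 treated arrays, and both NU7441 arrays were below both knockdown arrays. The fall under NU7441 was 2.55-fold (−1.35 ± 0.16 on the log2 scale, SE, 2 arrays in each group, limma adjusted p = 9.48e-04) and was called under all 14 alternatives. HSPA9, the mitochondrial HSP70 also called mortalin, had intensities of 843 and 860 in controls, 650 and 854 with NU7441, and 923 and 874 after knockdown. The NU7441 arrays overlapped the controls, and the difference of −0.19 ± 0.13 did not pass the threshold (95% interval −0.47 to 0.09). It depended on single arrays, being 0.0040 without NU7441 replicate 1 and −0.39 without replicate 2, where it passed as lower (adjusted p = 0.00525, with the spread of the lone NU7441 array assumed to be that of the other groups). Its sign turned with median centring (0.13). In this compartment 1 of the 2 measured mitochondrial members fell and the other did not pass.

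Among cytosolic chaperones, the HSP110 proteins HSPH1, HSPA4 and HSPA4L release ADP from HSP70 and so let it discharge its substrate. HSPH1 read 1409 and 1390 in controls, 696 and 775 with NU7441, and 1136 and 1103 after knockdown, with no overlap between any groups. It fell 1.91-fold under NU7441 (−0.93 ± 0.08, adjusted p = 4.09e-04), under all 14 alternatives. HSPA4L read 208 and 194 in controls, 107 and 111 with NU7441, and 180 and 175 after knockdown. It fell 1.84-fold (−0.88 ± 0.17, adjusted p = 0.0054). HSPA4 read 319 and 330 in controls, 219 and 281 with NU7441, and 239 and 233 after knockdown. Both treated groups of HSPA4 lay below the controls, and its −0.39 ± 0.16 did not pass (adjusted p = 0.0866). It was −0.21 without NU7441 replicate 1 and −0.57 without replicate 2, each value resting on 1 NU7441 array. With median centring it was −0.0716. Without control replicate 1 or 2, where 1051 and 868 of all genes passed in place of 4917, the adjusted p of HSPA4L was 0.0821 and 0.0661.

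The stress-inducible HSP70 genes HSPA1A and HSPA1B encode nearly the same protein, and HSPA1L, a testis-enriched relative, lies beside them. HSPA1A read 187 and 176 in controls, 228 and 310 with NU7441, and 152 and 195 after knockdown. The NU7441 arrays were above the controls and the knockdown arrays straddled them. The difference of 0.55 ± 0.20 did not pass (adjusted p = 0.0601), although it passed with median centring (0.87) and with dim genes dropped. It was 0.77 without NU7441 replicate 1 and 0.33 without replicate 2, each value resting on 1 NU7441 array. HSPA1B read 976 and 911 in controls, 1072 and 975 with NU7441, and 761.8 and 825 after knockdown, a difference of 0.12 ± 0.09 under NU7441 with overlapping arrays.

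Each of these 3 genes had 5 probesets, and these did not read alike. The 5 HSPA1A probesets gave log2 fold changes from 0.46 to 0.60 under NU7441, 3 of them with nearly equal intensities on every array. The 5 of HSPA1B ran from −0.41 to 0.59 under NU7441 and from −0.29 to 0.31 after knockdown, the brightest being 0.12 and −0.25. For HSPA1L, which was near the low end of the scale on all arrays, the brightest probeset gave 0.40 ± 0.28, whereas the other 4 gave −0.61 to −0.33, with 3 of those at 16 on the first NU7441 array. The mean of its probesets gave −0.25. Because the copies share most of their sequence, probesets may read more than one of them, and the values of HSPA1A, HSPA1B and HSPA1L are uncertain as measures of single genes.

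**Figure D3:**
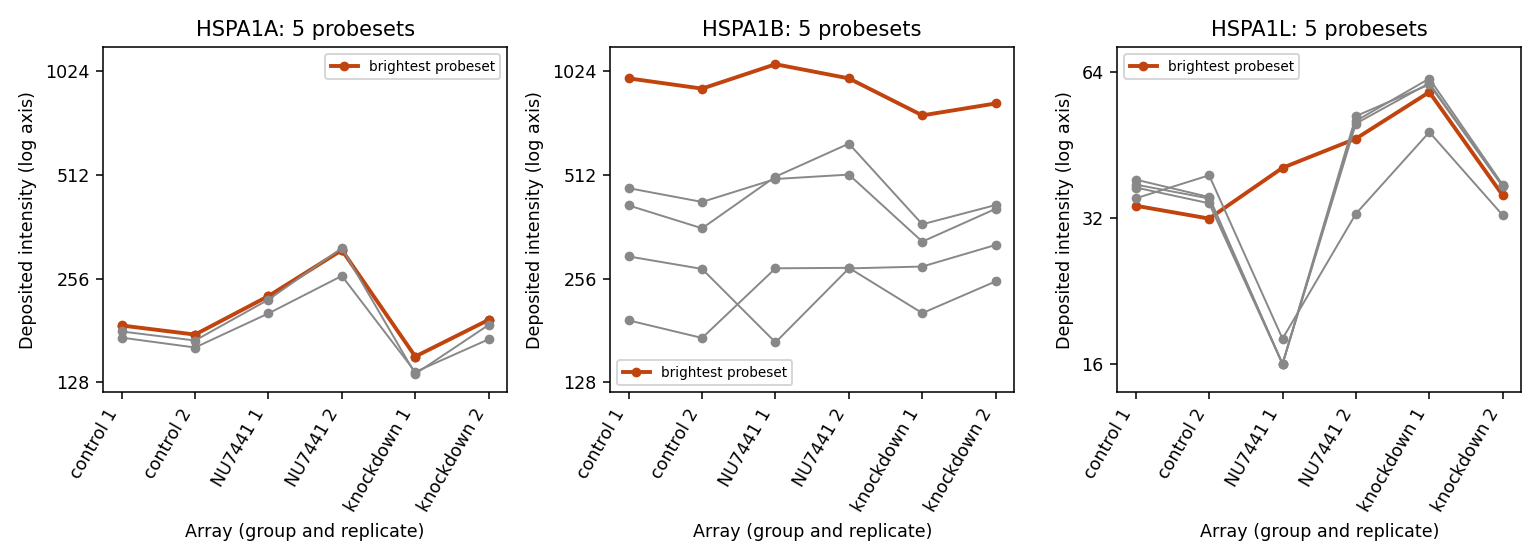
Deposited intensity (log axis) of the 5 probesets of HSPA1A, HSPA1B and HSPA1L on each array, the brightest probeset, which stood for the gene, in red. The HSPA1A lines run together, the HSPA1B lines cross between control and NU7441, and the first NU7441 array separates the HSPA1L probesets.

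The remaining HSP70-like members were low or variable. HSPA14, a ribosome-associated HSP70, read 183 and 191 in controls, 35.8 and 145 with NU7441, and 190 and 174 after knockdown. The low value stood on the first NU7441 array, and −1.38 ± 0.50 did not pass (adjusted p = 0.0586), although it passed with quantile normalization (−1.29, adjusted p = 0.0445) and with the replicate block (adjusted p = 0.0357). Without NU7441 replicate 1 the difference was −0.37, and without replicate 2, leaving that low array alone, it was −2.39, a value that rests on 1 array. HSPA6 is a dim and strictly stress-induced HSP70 with a 3-unit heat shock element in its window. HSPA6 read 30.1 and 29.9 in controls, 30.9 and 40.0 with NU7441, and 25.8 and 23.3 after knockdown. The dim genes HSPA2, HSPA12A and HSPA12B lay between 19.0 and 41.7, and none of these 4 genes passed in any comparison.

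BAG proteins bind HSP70 and prompt nucleotide release, and BAG1 in addition links HSP70 to the proteasome and BAG3 to autophagy. BAG3 read 97.7 and 103 in controls, 52.6 and 51.3 with NU7441, and 99.7 and 86.1 after knockdown. It fell 1.94-fold under NU7441 (−0.95 ± 0.21, adjusted p = 0.00994), with knockdown arrays overlapping the controls. BAG1 read 304 and 303 in controls, 425 and 407 with NU7441, and 415 and 478 after knockdown. All 4 treated arrays of BAG1 were above both controls, and it rose 1.37-fold under NU7441 (0.45 ± 0.13, adjusted p = 0.0245). BAG2, BAG4 and BAG5, with intensities from 73.4 to 156, did not pass in any comparison. STIP1, the HOP protein that hands clients from HSP70 to HSP90, read 659 and 643 in controls, 476 and 492 with NU7441, and 569 and 513 after knockdown. It fell 1.35-fold under NU7441 (−0.43 ± 0.11, adjusted p = 0.0163), and with median centring was at −0.11 (adjusted p = 0.489). Without control replicate 1 or 2 the adjusted p was 0.0996 and 0.126 for BAG3, 0.136 and 0.143 for BAG1, and 0.122 and 0.106 for STIP1. With no mean-variance trend in the fit, BAG1 (adjusted p = 0.0736) and STIP1 (adjusted p = 0.0813) did not pass either.

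Small heat shock proteins bind unfolding proteins without using ATP. HSPB1, or HSP27, read 805 and 859 in controls, 1062 and 936 with NU7441, and 889 and 1018 after knockdown. All 4 treated arrays of HSPB1 were above the controls, and 0.26 ± 0.10 under NU7441 did not pass (adjusted p = 0.0773; 0.58 and adjusted p = 0.00514 with median centring). HSPB8 read 34.5 and 33.9 in controls, 16 and 16.7 with NU7441, and 23.4 and 18.9 after knockdown. It fell under NU7441 (−1.06 ± 0.18, adjusted p = 0.00341), from a dim signal to the lowest value of the table, so its log2 fold change depended on that floor and was −3.87 with the offset removed. HSPB3 was dim on all arrays, between 17.8 and 26.8.

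In the ER, calnexin (CANX) and calreticulin (CALR) are lectin chaperones that retain unfinished glycoproteins, and HYOU1 is the HSP110-like exchange factor of the ER. CANX read 719 and 742 in controls, 432 and 519 with NU7441, and 660 and 601 after knockdown. It fell 1.54-fold under NU7441 (−0.62 ± 0.12, adjusted p = 0.00572), with both knockdown arrays between the other groups. CALR read 1641 and 1617 in controls, 1263 and 1484 with NU7441, and 1228 and 1265 after knockdown. All treated arrays of CALR were below both controls, and −0.25 ± 0.09 under NU7441 missed the threshold by less than rounding shows (adjusted p = 0.05), passing with quantile normalization (−0.36) and standing at 0.07 with median centring. HYOU1 read 167 and 233 in controls, 180 and 177 with NU7441, and 249 and 241 after knockdown, and its −0.14 ± 0.19 under NU7441 did not pass. HYOU1's sign turned with median centring (0.17) and without control replicate 2 (0.10). Its second probeset was at −0.42 under NU7441, with controls at 144 and 136 and NU7441 arrays at 144 and 76.2. The call of CANX was lost with median centring (−0.31, adjusted p = 0.067) and without control replicate 2 (adjusted p = 0.0646).

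Set by compartment, 5 of 20 cytosolic members fell and 1 rose, 1 of 3 ER members fell and 1 of 2 mitochondrial members fell under NU7441. Of all genes 22.4% were called lower and 10.8% higher. In either direction 30% of the cytosolic members passed, against 33.2% of all genes, so the cytosolic count was near the background. The median log2 fold change was −0.39 for cytosolic, −0.25 for ER and −0.77 for mitochondrial members, against −0.23 for all genes. With 3 and 2 genes, the ER and mitochondrial values describe those genes alone, and differences between compartments were not tested. With median centring 5 cytosolic members passed as higher and 4 as lower, no ER member passed by limma's adjusted p, and the medians were −0.0766 for cytosolic, 0.0673 for ER and −0.45 for mitochondrial members. In that fit 4396 of all 14812 genes passed, and their median was 0.08.

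**Figure D4:**
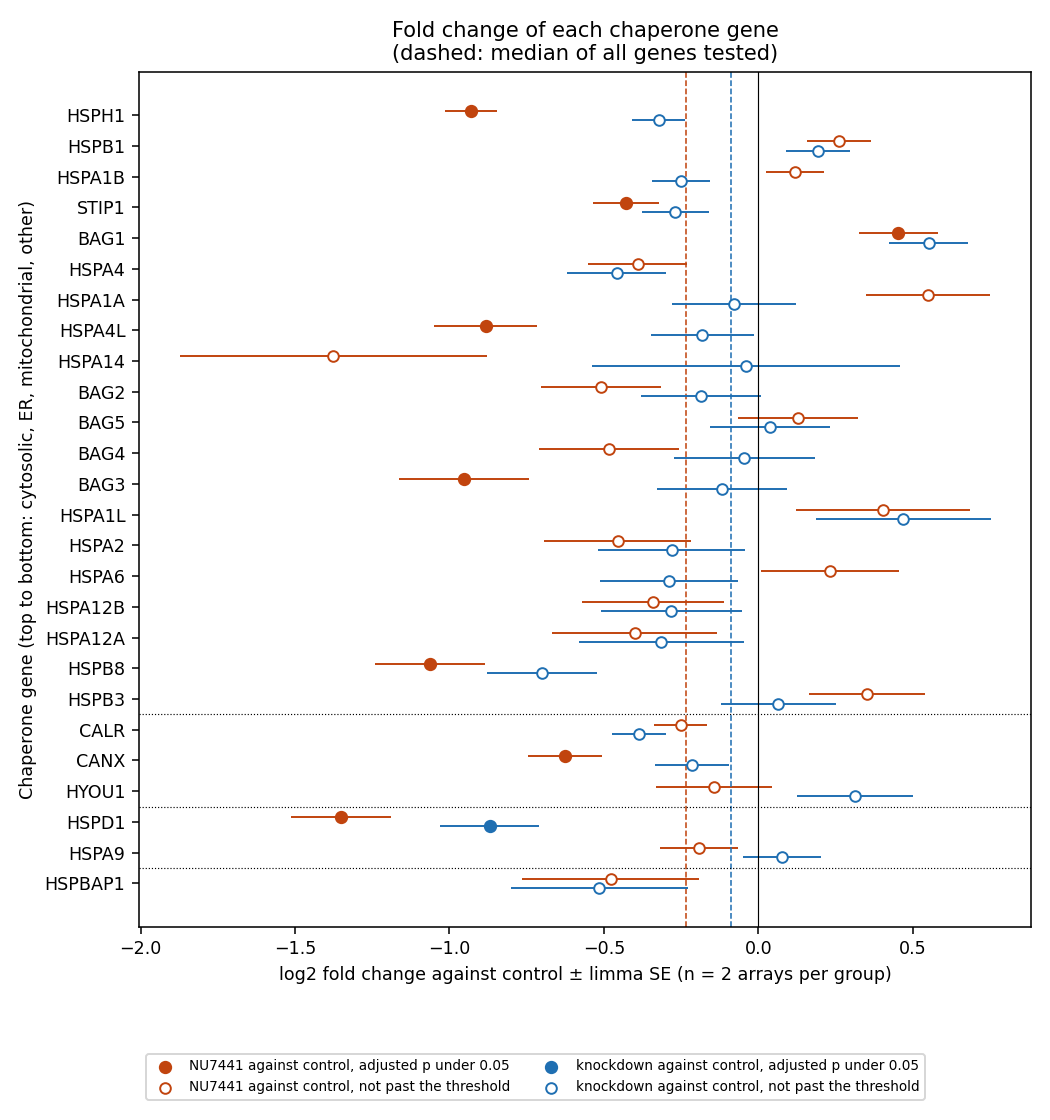
log2 fold change against control with limma's standard error (n = 2 arrays per group) for each chaperone gene, under NU7441 (red) and after knockdown (blue). Filled points passed an adjusted p of 0.05, and dashed lines mark the median of all genes, −0.23 and −0.09. HSPD1 is the 1 member filled in both colours.

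The comparison of knockdown with control addressed depletion of the protein. After depletion HSPD1 was the 1 chaperone gene of 26 that passed the threshold, and it fell 1.83-fold (−0.87 ± 0.16, limma adjusted p = 0.0484). The background was 0.77% of all genes called, 0.486% lower and 0.284% higher. The call was close to the threshold and was lost under 9 of 14 alternatives, among them the replicate block (adjusted p = 0.0716) and leaving out control replicate 1 (0.435) or 2 (0.362), or knockdown replicate 1 (0.239) or 2 (0.399). In those 4 fits with an array left out at most 3 of all genes passed, so they could hardly keep any call. The value stayed between −0.96 and −0.70 over all alternatives. At an unadjusted p under 0.05, 7 members were lower and 1 higher, where 12.9% and 6.68% of all genes were. The median log2 fold change was −0.20 for the members and −0.09 for all genes.

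Several members that did not pass had both knockdown arrays on one side of the controls. In all, 14 members had both arrays below both controls and 5 had both above, where the background was 38.2% and 23.4% of genes. BAG1 was at 0.55 ± 0.13 (adjusted p = 0.0757), CALR at −0.39 ± 0.09 (0.0701), HSPB8 at −0.70 ± 0.18 (0.0878), HSPH1 at −0.32 ± 0.08 (0.0924) and HSPA4 at −0.46 ± 0.16 (0.166). With the 2 compared groups alone, which leaves out the more variable NU7441 arrays, these 5 passed as well as HSPD1, with 2843 genes called in all. HYOU1 was at 0.31 ± 0.19, between 0.0712 and 0.55 without 1 or the other control array, and at −0.04 by its second probeset. HSPA9 was at 0.08 ± 0.13, with both knockdown arrays above both controls. The comparisons with control share their control arrays, and like values in both are not independent.

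Knockdown against NU7441 compared the treatments directly, over different durations. HSPH1 (0.61 ± 0.08, adjusted p = 0.0053), BAG3 (0.84 ± 0.21, 0.041) and HSPA4L (0.70 ± 0.17, 0.0344) were higher in depleted than in inhibitor-treated cells, and HSPA1B (−0.37 ± 0.09, 0.0429) was lower. These were 4 of 26 members (15.4%), against 8.67% of all genes (5.83% higher and 2.84% lower). Both knockdown arrays were above both NU7441 arrays for 12 members (background 32.9%) and below for 3 (background 19.6%). For HSPD1 the difference was 0.48 ± 0.16 (95% interval 0.12 to 0.84, adjusted p = 0.0908) and for CANX 0.41 ± 0.12 (adjusted p = 0.0639), neither past the threshold. HSPA1A was at −0.63 ± 0.20 (adjusted p = 0.0815), on the same side as HSPA1B. For BAG1 the difference was 0.10 ± 0.13 (95% interval −0.19 to 0.38). With the replicate block HSPH1 kept its call, and BAG3 (adjusted p = 0.0654), HSPA4L (0.0575) and HSPA1B (0.0702) did not. Without knockdown replicate 1 or 2 none of the 4 passed, in fits where 7 and 0 of all genes did. Over all alternatives the difference was 0.46 to 0.68 for HSPH1, 0.66 to 1.07 for BAG3, 0.56 to 0.79 for HSPA4L and −0.51 to −0.23 for HSPA1B.

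Genes that work with these chaperones were taken from 6 lists, beside the same background of 22.4% lower and 10.8% higher under NU7441. Of 8 measured genes on the list of HSP90 co-chaperones, 3 fell and 2 rose (median −0.46). The HSP90 genes HSP90AA1 and HSP90AB1 were on the same list but had no named probeset, so HSP90 itself was not measured there. PTGES3, the p23 protein that holds HSP90 on its client, read 1149 and 1348 in controls, 265 and 237 with NU7441, and 978 and 880 after knockdown. Its NU7441 arrays stood far below the other 4, at −2.31 ± 0.12 (limma adjusted p = 2.83e-05), a fall called under all 14 alternatives. PPID, a cyclophilin of the HSP90 complex, fell by 1.04 ± 0.29 (adjusted p = 0.0221). CDC37, which brings kinases to HSP90, rose (0.67 ± 0.13, adjusted p = 0.00526), as did UNC45A, a myosin co-chaperone (0.63 ± 0.17, adjusted p = 0.023). The co-chaperones of HSP90 therefore moved in both directions. Of 4 measured heat shock factors and their regulators, HSBP1, which binds HSF1, rose by 0.25 ± 0.08 (adjusted p = 0.0454), a call lost under 10 of 14 alternatives. HSF1 itself was at 0.40 ± 0.20 (adjusted p = 0.145).

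Of 19 measured ER folding genes 7 fell and 4 rose under NU7441 (median −0.54). TMX3, a membrane-bound disulfide isomerase, fell (−1.78 ± 0.37, adjusted p = 0.00827), as did UGGT2, related to the glucosyltransferase that returns unfolded glycoproteins to calnexin (−1.41 ± 0.35, adjusted p = 0.0147). UGGT2 read 20.5 on the first NU7441 array, near the lowest value of the table, and ran from −2.37 to −0.89 over the alternatives. MESD, a chaperone of LDL receptor family proteins, rose (0.66 ± 0.18, adjusted p = 0.0211), and so did CNPY4 (0.82 ± 0.26, adjusted p = 0.037). In the list for the unfolded protein response and ER-associated degradation the balance was the other way, with 5 of 11 higher and 2 lower (median 0.50). ATF6B, a membrane-bound sensor of ER stress, rose (1.03 ± 0.21, adjusted p = 0.00761), and DDIT3, the CHOP transcription factor, rose (0.99 ± 0.25, adjusted p = 0.0168). ATF4, another transcription factor of the list, fell (−0.39 ± 0.10, adjusted p = 0.0183), from 968 and 970 in controls to 719 and 757 with NU7441. The list thus held genes moving both ways, and activity of the response was not tested. DERL3, a component of the degradation channel, fell (−1.21 ± 0.37, adjusted p = 0.0342), from 48.3 and 49.1 in controls to 19.3 and 22.8 with NU7441. Those values are close to the lowest of the table, and the size of the fall ran from −2.54 to −0.90 over the alternatives. XBP1, a transcription factor of the response, was at −0.69 ± 0.34 (adjusted p = 0.143). The difference between the ER lists was not tested.

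Of 8 measured genes of mitochondrial folding and proteolysis 3 fell and 1 rose under NU7441 (median −0.36). The proteases HTRA2 (−1.25 ± 0.29, adjusted p = 0.0123) and YME1L1 (−0.996 ± 0.28, adjusted p = 0.0242) fell, and the disaggregase CLPB rose (0.805 ± 0.18, adjusted p = 0.0116). TRAP1, the mitochondrial HSP90, was at 0.41 ± 0.16 (adjusted p = 0.0779). Of 15 measured prefoldin and tubulin-folding genes 7 fell and 2 rose (median −0.64). PDCL3 (−1.10 ± 0.28, adjusted p = 0.0176), which assists the CCT chaperonin, and the prefoldin subunit PFDN4 (−1.07 ± 0.30, adjusted p = 0.0254) fell. Of the tubulin cofactors, TBCB (0.82 ± 0.14, adjusted p = 0.00406) and TBCD (0.72 ± 0.21, adjusted p = 0.0278) rose. TBCA fell (adjusted p = 0.0356), from 516 and 567 in controls to 189 and 386 with NU7441. TBCE (−0.58 ± 0.21, adjusted p = 0.0589) and TBCC (−0.55 ± 0.25, adjusted p = 0.114) were on the lower side and did not pass. The tubulin cofactors therefore moved in both directions. After knockdown no gene of the 6 lists passed limma's adjusted threshold, where the background was 0.77%. At an unadjusted p under 0.05, 15 of the 65 measured list genes were higher and 8 lower after knockdown, where the background was 6.68% and 12.9%. For knockdown against NU7441, 9 of the 65 were higher by limma's adjusted p (background 5.83%), PTGES3 among them (1.89 ± 0.12, adjusted p = 2.47e-04). Among the 2 highest and 2 lowest genes of each list, 19 passed the threshold under NU7441. PTGES3 kept its call under all 14 alternatives. The other 18 lost it under at least 1 alternative, among them fits with a control array left out. The size of several falls depended on which NU7441 array was kept: without 1 or the other, PFDN4 was at −0.49 and −1.65, PDCL3 at −0.60 and −1.60, YME1L1 at −0.50 and −1.50, PPID at −0.52 and −1.57, HTRA2 at −0.85 and −1.66, TMX3 at −1.11 and −2.45, and UGGT2 at −0.89 and −1.93, and the rise of MESD was 0.40 and 0.91. With median centring PFDN4 (adjusted p = 0.0702), YME1L1 (0.0748), PPID (0.0911) and DERL3 (0.0852) did not pass, nor did DERL3 with quantile normalization (0.0698) or PFDN4 with no trend (0.0517).

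**Figure D5:**
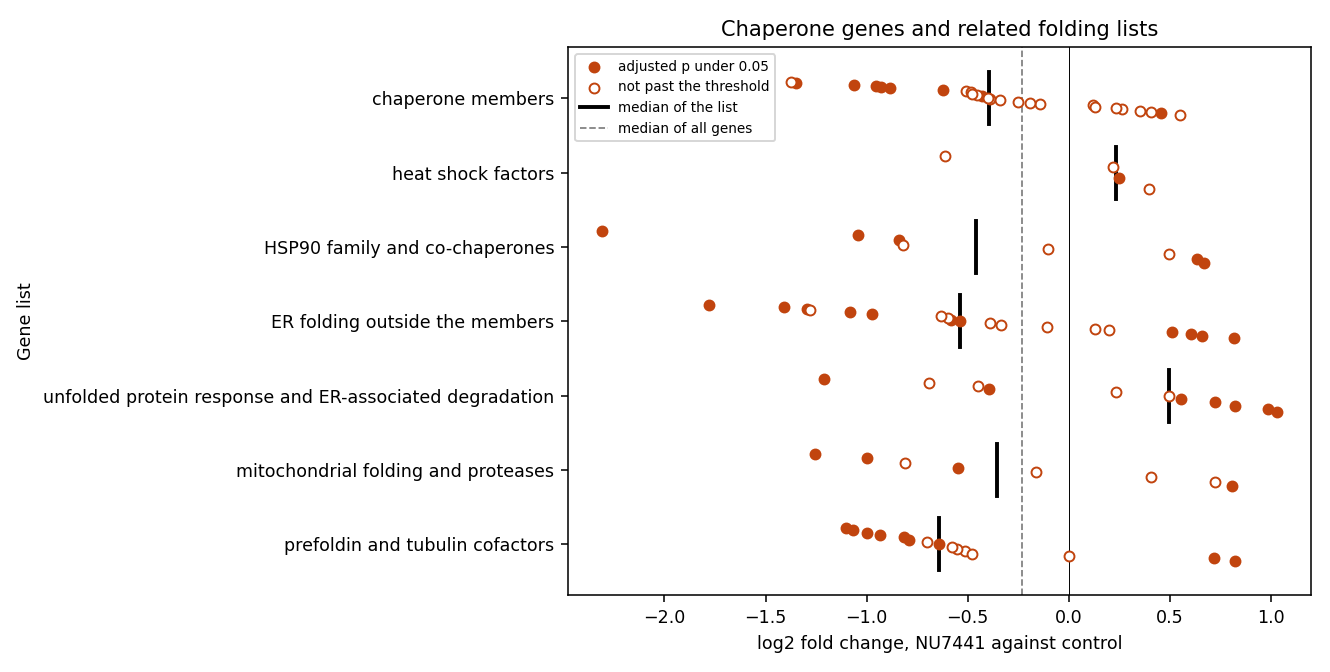
log2 fold change under NU7441 against control for the measured genes of the 6 pathway lists, 1 point per gene, with filled points past an adjusted p of 0.05, a bar for each list's median and a dashed line for the median of all genes, −0.23. PTGES3 at −2.31 is the lowest point of the HSP90 list.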

How the data were processed

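RNA from 6 cultures of C4-2 cells was hybridised to Affymetrix Human Gene 2.0 ST chips. The authors deposited linear intensity values per probeset for each array, per the value table itself. The summarisation, normalization and build are each not given in the sources used here, and the values were not quantile normalized (array medians ran from 24.6 to 31.6). Of 44629 probesets 15835 carried a gene symbol in the platform annotation, updated through Entrez identifiers to RefSeq symbols, and the brightest probeset stood for each of 14812 genes. The log2 intensities of all 6 arrays were fitted in 1 model with limma 3.58.1 (R 4.3.3; lmFit, eBayes with a mean-variance trend, 3 residual degrees of freedom), two-sided, with Benjamini-Hochberg adjustment over all genes and a threshold of 0.05. The ± values are limma's standard errors, with 2 arrays per group, and that number limits the precision. Levels are not compared between genes. The fit was tested on simulated data with planted changes larger than those of the members and a spread per gene shared by all groups. That test therefore does not show how reliable the calls reported here are. The members and pathway lists were chosen with earlier results of these data known. Any member could be named, with the 13 core genes and the 3 highest and 3 lowest of each comparison array by array, and from each pathway list the 2 highest and 2 lowest plus HSF1 and TRAP1. TBCA, TBCC, TBCE and ATF4 were named in addition, to show list genes that moved against others named, and were not followed through the alternatives. Alternatives were median centring, quantile normalization, removal of the offset of 16, leaving out genes with mean log2 under 6, no trend, the compared groups alone, the mean of probesets, a replicate block and leaving out each array. Members under the median gene's intensity of 38.2 are called dim.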

Additional observations from a re-analysis of the deposited data

Results flagged for a closer look

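The effects of knockdown and NU7441 against control differed for 4 chaperone genes, by limma's test of the difference itself. The difference, knockdown minus NU7441 in log2, was 0.84 for BAG3, 0.70 for HSPA4L, 0.61 for HSPH1 and −0.37 for HSPA1B. For BAG3, HSPA4L and HSPH1 both NU7441 arrays lay below both knockdown arrays. For HSPA1B both lay above them, and the call was lost under 11 of 14 alternatives, among them the mean of its 5 probesets (−0.23, adjusted p = 0.3). The calls of BAG3 and HSPA4L were each lost under 8 of 14 alternatives and that of HSPH1 under 3, while the differences ran from 0.66 to 1.07, from 0.56 to 0.79 and from 0.46 to 0.68. For each gene 2 of those losses are the fits without a knockdown array, where 7 and 0 of all genes passed. The durations, 24 h and 96 h, differed with the treatment, so duration and treatment cannot be told apart.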

How the results depend on the processing

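Of the alternatives for single genes 929 values kept their direction and side of the threshold, 127 lost the call, 50 gained one and 24 reversed, and the causes were not tested. These counts pool values that passed in the main fit with values that did not. The 929 therefore include values without a call that stayed without one, and are no measure of how well calls held. Under NU7441 the count of chaperone calls, main 8, was between 6 and 11 over the other alternatives (10 with median centring, of which 6 were among the main 8, and 11 with quantile normalization, which held all 8) and ran from 3 to 15 when 1 array was left out (cytosolic, main 6, from 2 to 11; ER, main 1, from 0 to 2; mitochondrial, main 1, from 1 to 2). ER calls were 0 with median centring and 2 with quantile normalization, with dim genes left out and with the mean of probesets. Over all genes NU7441 calls fell from 4917 to 1051 and 868 without control replicate 1 or 2 and rose to 7845 without NU7441 replicate 2. Knockdown calls among chaperones, main 1, were 2 with median centring or quantile normalization, 6 in a fit of control and knockdown alone, and 0 after removal of the offset, dim genes left out, no trend, the mean of probesets or the replicate block, and ran from 0 to 6 with 1 array left out. Knockdown against NU7441, main 4, gave 1 with no trend, the compared groups alone or the replicate block, and from 0 to 9 with 1 array left out. The replicate numbers did not pair the samples (correlations of same-numbered deviations −0.00516, −0.0126 and −0.0676), and the replicate block gave 9 chaperone calls under NU7441. Reversed with median centring were CALR (0.0673), HSPA9 (0.13) and HYOU1 (0.17) under NU7441, BAG3 (0.0567), HSPA14 (0.13) and HSPA1A (0.0958) after knockdown, and BAG1 (−0.0465) and HSPA1L (−0.0788) for knockdown against NU7441. HSPA1L (−0.0756) and HSPB1 (0.0153) reversed with quantile normalization in that last comparison, and HSPA1L under NU7441 with the mean of probesets (−0.25). Leaving out 1 array took in HSPA9 (−0.39 to 0.0040), HYOU1 (−0.39 to 0.0976) and HSF4 (−0.54 to 0.97) under NU7441, HSPA14 (−0.10 to 0.0243) and HSPA1A (−0.26 to 0.0985) after knockdown, and BAG1 (−0.0045 to 0.20), HSPA1L (−0.29 to 0.42), HSPA4 (−0.25 to 0.11), HSPB1 (−0.17 to 0.0295) and HSPBAP1 (−0.35 to 0.28) for knockdown against NU7441, with both signs. In no reversed comparison had the gene passed the threshold.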
